A study of Mus musculus with 6 samples.

Results

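The retinoic acid genes described here are 9 genes taken by symbol from a table of raw gene counts that holds 23420 genes: the synthesis enzymes Aldh1a1, Aldh1a2 and Aldh1a3, the binding proteins Crabp1 and Crabp2, the receptors Rara, Rarb and Rarg, and the degrading enzyme Cyp26b1. All 9 were found and all 9 passed the filter on low counts, which left 15347 genes for testing. Polyadenylated RNA was sequenced from mouse fetal kidney cells at embryonic day 18.5, sorted by flow cytometry on a Six2-GFP transgene. Six2-high cells were GFP-positive and Six2-low cells were GFP-negative, with the gate set on kidneys of embryos without the transgene. Both fractions came from transgenic embryos of a wild-type mother and a father heterozygous for the transgene. Each fraction had 3 libraries, tied in pairs by preparation. Replicate 1 has the first preparation tag and the TRI kit, and replicate 2 a later tag and the Norgen kit. Replicate 3 has that later tag and the TRI kit. First and later follow the numbers in the tags only. The labels do not state what the tags stand for or their order in time.

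Six2 is active in the cap mesenchyme, from which nephrons arise, and the Six2-low fraction is a mixture of every other GFP-negative cell type that passed the scatter gates. No library is tied to a single embryo in the labels. For the comparison of fractions, the p-values measure the spread between these libraries, which may in part be technical. The comparison asks how the machinery that makes, binds, senses and clears retinoic acid differed between the nephron progenitor fraction and the rest of the kidney.

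Retinoic acid is a small lipid hormone made from vitamin A: retinol is oxidised to retinal by alcohol and retinol dehydrogenases, and retinal dehydrogenases of the Aldh1a family then oxidise retinal to retinoic acid. Cellular binding proteins carry it in the cytoplasm, nuclear receptors of the RAR family bind it on DNA together with RXR partners, and Cyp26 enzymes hydroxylate it for clearance. In the developing kidney, retinoic acid signalling is known for maintaining the receptor Ret in the ureteric bud and thereby its branching.

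Total counts ran from 23535399 to 29791421 per library. Levels are CPM, counts scaled to the TMM-adjusted size of each library, given for replicates 1, 2 and 3 in that order, and means carry the SD over 3 libraries. A log2 fold change is that of Six2-high over Six2-low, given with its standard error (SE), from the edgeR quasi-likelihood test with Benjamini-Hochberg adjustment over the genes tested, and a gene was called at an adjusted p under 0.05. Six2 itself averaged 1224 ± 332 CPM in Six2-high, against 15.2 ± 7.05 CPM in Six2-low, which checks the sort. It was at 849, 1479 and 1344 CPM in Six2-high, against 23.4, 11.2 and 11.1 CPM in Six2-low. By preparation its log2 difference was 5.18, 7.03 and 6.91, so the fractions were least separated in replicate 1. In Six2-high replicate 3 the ribosomal precursor Rn45s took 9.59% of the counts, against at most 0.676% in the other 5 libraries. Leaving out that library, or both Rn45s and Lars2, changed the call of 0 of the 9 genes.

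Of the 9 genes, 6 differed between the fractions: Aldh1a2 and Crabp2 were higher in Six2-high, and Aldh1a1, Aldh1a3, Rarg and Cyp26b1 were lower. Crabp1, Rara and Rarb were not called. Across all genes tested 50.1% were called, 21.4% as higher and 28.7% as lower, so 6 calls among 9 genes are read against a background in which a call was common. The median log2 fold change was -0.08 over the 9 genes and 0.05 over all genes tested. The 2 fractions did not overlap in CPM in the 6 called genes, as in 60% of all genes tested, and they overlapped in the other 3.

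**Figure D1:**
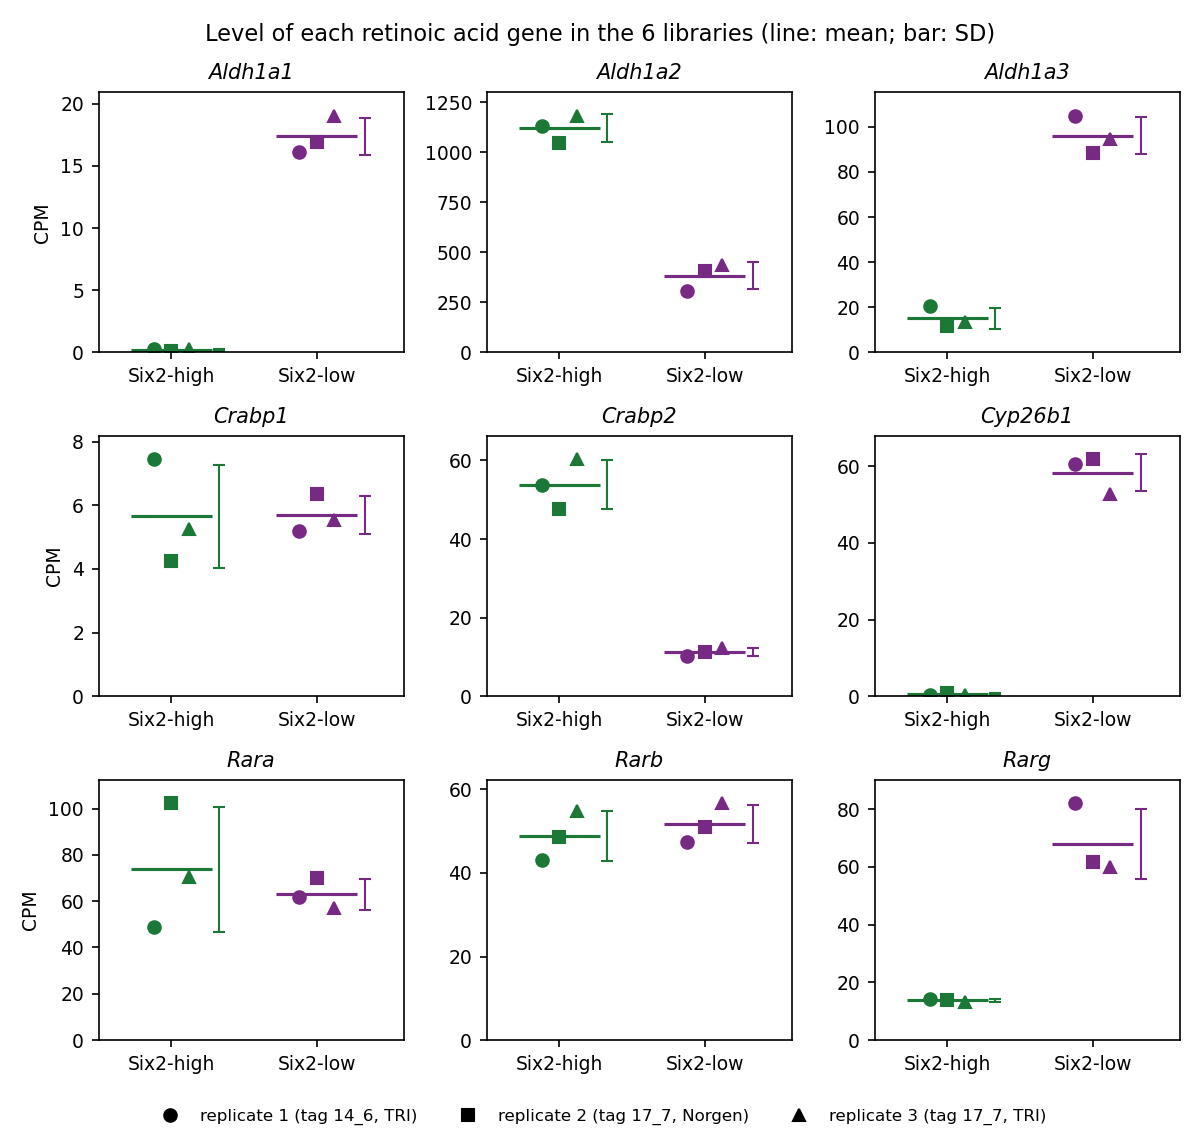
CPM of the 9 genes in each library on linear axes from 0, 1 panel per gene, with Six2-high left of Six2-low. Each symbol is a library, the line is the mean and the bar the SD of 3 libraries. Aldh1a2 and Crabp2 lie higher in all 3 Six2-high libraries, Aldh1a1, Aldh1a3, Rarg and Cyp26b1 lie lower in them, and the fractions overlap in Crabp1, Rara and Rarb.

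Among the synthesis enzymes, Six2-high cells had more Aldh1a2 RNA and less Aldh1a1 and Aldh1a3 RNA than Six2-low cells. Aldh1a2 encodes the retinal dehydrogenase that makes most embryonic retinoic acid (mm10 chromosome 9, 71215789 to 71296243, plus strand). It was at 1132, 1047 and 1183 CPM in the Six2-high libraries, against 308, 407 and 436 CPM in the Six2-low libraries. The lowest Six2-high library lay above the highest Six2-low library, and within Six2-low replicate 1 was the lowest. The means of 1121 ± 68.6 CPM in Six2-high, against 384 ± 67.0 CPM in Six2-low, gave a log2 fold change of 1.55 (SE 0.15, edgeR adjusted p = 5.2e-05). This is 2.92-fold, and by preparation the log2 difference was 1.88, 1.36 and 1.44. Aldh1a2 was thus abundant on both sides of the sort, and bulk libraries cannot tell fewer cells of a type from less RNA per cell.

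Aldh1a3, a second retinal dehydrogenase (chromosome 7, 66390890 to 66427517, minus strand), went the other way. Its level was 20.4, 11.5 and 13.6 CPM in Six2-high, against 105, 88.6 and 94.8 CPM in Six2-low. Replicate 1 was the highest library of each fraction, and the fractions stayed far apart. The means were 15.2 ± 4.66 CPM in Six2-high, against 96.1 ± 8.26 CPM in Six2-low, and the log2 fold change was -2.66 (SE 0.21, edgeR adjusted p = 1.6e-05).

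Aldh1a1, the retinal dehydrogenase best known from adult tissues (chromosome 19, 20492715 to 20643465, plus strand), was near 0 in Six2-high. The raw counts were 8, 2 and 5 reads in Six2-high, against 436, 434 and 590 reads in Six2-low. In CPM these are 0.278, 0.0844 and 0.246 in Six2-high and 16.1, 16.9 and 19.0 in Six2-low. Every Six2-high library was far below every Six2-low library. The log2 fold change was -6.37 (SE 0.32, edgeR adjusted p = 1.7e-06), or 82.8-fold lower, and its size rests on 15 reads in Six2-high. Aldh1a1 has a closely related neighbour in the genome, Aldh1a7, with 25 reads over the Six2-high libraries and 381 over the Six2-low libraries. The sources used here do not give how reads that match both genes were counted, so some may be lost or misassigned.

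The binding proteins separated into one that was called and one that was not. Crabp2, which carries retinoic acid to its receptors in the nucleus (chromosome 3, 87948666 to 87953376, plus strand), was at 53.7, 47.6 and 60.3 CPM in Six2-high, against 10.3, 11.3 and 12.4 CPM in Six2-low. The fractions did not overlap and replicates lay close together. The log2 fold change was 2.25 (SE 0.14, edgeR adjusted p = 4.7e-06), or 4.75-fold higher, and by preparation it was 2.37, 2.07 and 2.27.

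Crabp1, the cytoplasmic relative of Crabp2 (chromosome 9, 54764748 to 54773110, plus strand), was at 7.44, 4.26 and 5.25 CPM in Six2-high, against 5.18, 6.36 and 5.55 CPM in Six2-low. The highest and the lowest of the 6 libraries were both Six2-high, so the fractions overlapped throughout. Its log2 fold change was -0.01 (SE 0.25, edgeR adjusted p = 0.98), and the 95% interval from -0.57 to 0.56 holds moderate differences in either direction. The sign depended on single libraries: without Six2-high replicate 2 the log2 fold change was 0.17, and without Six2-high replicate 1 it was -0.28, neither called.

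Of the receptors, Rarg was called and Rara and Rarb were not. Rarg, the gamma receptor (chromosome 15, 102234938 to 102257517, minus strand), was at 14.4, 13.7 and 13.1 CPM in Six2-high, against 82.1, 61.7 and 60.1 CPM in Six2-low. All 3 Six2-high libraries lay within a narrow band below every Six2-low library, among which replicate 1 was the highest. The log2 fold change was -2.31 (SE 0.15, edgeR adjusted p = 6.0e-06), or 4.94-fold lower.

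Rara, the alpha receptor (chromosome 11, 98927818 to 98974942, plus strand), was at 48.7, 102 and 70.4 CPM in Six2-high, against 62.0, 69.9 and 56.9 CPM in Six2-low. The spread of Six2-high enclosed all 3 Six2-low libraries. Its log2 fold change was 0.23 (SE 0.24, edgeR adjusted p = 0.45), with a 95% interval from -0.32 to 0.78. Without Six2-high replicate 2, the highest library, it was -0.07.

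Rarb, the beta receptor (chromosome 14, 16430839 to 16819156, minus strand), was at 43.1, 48.5 and 54.9 CPM in Six2-high, against 47.5, 51.0 and 56.7 CPM in Six2-low. The fractions overlapped, and within the preparations the log2 difference was -0.14, -0.07 and -0.04. The log2 fold change was -0.08 (SE 0.13, edgeR adjusted p = 0.62), with a 95% interval from -0.38 to 0.21, the narrowest of the genes not called. Rarb shares 1793 of its 5265 exon bases with Top2b, which had 34188 counts over the libraries against 7858 for Rarb. The sources used here do not give whether counting used strand, so the value of Rarb is uncertain.

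Rarb is known as a receptor gene that retinoic acid itself induces, and Cyp26a1, a second clearing enzyme, is known as another. The promoters were therefore searched for the direct repeats that RAR and RXR pairs bind. The canonical half-site is AGGTCA, and 3 variants were allowed. One variant is AGTTCA, common in such elements. Another is GGTTCA, and the last is GGGTCA. A repeat was any pair of these half-sites in the same orientation, separated by 5 bases (DR5), 2 bases (DR2) or 1 base (DR1), on either strand. The windows, from RefSeq on GRCm38.p6, run from 250 bases before to 50 bases after each gene start, and 7 of the 9 genes and 35 of the 51 genes in the 3 retinoic acid lists have one. A DR5 lay in 0.115% of the 27025 genes with a window, a DR2 in 0.311% and a DR1 in 0.263%. Of the 35 genes, 2 held a DR5, Rarb and Cyp26a1, and 0 held a DR2 or a DR1. These 2 genes prompted the search, and the variants allowed include the half-sites of their elements, so the count does not measure enrichment. The 2 promoters are shown because they are the ones with a match among these genes, with the repeat in capitals, each read 5′ to 3′ on the strand of its gene; that of Rarb lies at chr14:16575427-16575726 (minus strand), inside the gene's span, and that of Cyp26a1 at chr19:37697558-37697857 (plus strand).
Rarb promoter: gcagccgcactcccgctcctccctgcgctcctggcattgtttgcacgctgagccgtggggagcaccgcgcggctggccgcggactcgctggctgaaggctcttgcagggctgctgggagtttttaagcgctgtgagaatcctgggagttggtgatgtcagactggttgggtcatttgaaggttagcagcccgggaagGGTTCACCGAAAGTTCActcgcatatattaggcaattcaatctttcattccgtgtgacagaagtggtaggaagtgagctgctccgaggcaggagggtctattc
Cyp26a1 promoter: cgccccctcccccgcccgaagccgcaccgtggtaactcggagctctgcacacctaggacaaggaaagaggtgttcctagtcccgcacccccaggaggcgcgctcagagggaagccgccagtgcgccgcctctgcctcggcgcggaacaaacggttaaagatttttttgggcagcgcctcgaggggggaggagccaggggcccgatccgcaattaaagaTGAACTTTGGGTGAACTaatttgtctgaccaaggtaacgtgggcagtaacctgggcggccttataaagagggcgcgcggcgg
Rarb element: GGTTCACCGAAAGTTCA
Cyp26a1 element, opposite strand: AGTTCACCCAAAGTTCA

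The Rarb repeat lies at bases -53 to -37 from the start, on the strand of the gene, and the Cyp26a1 repeat at bases -32 to -16, on the opposite strand. Read in the same orientation, the elements differ at 2 of 17 positions, counted from 1 at the 5′ end of the element and written from Rarb to Cyp26a1: G1A, in the first half-site, and G9C, in the spacer. A match of letters is a description of the window, not a bound site. Of the 2 genes with the repeat, Rarb was not called between the fractions, and Cyp26a1 was lower in Six2-high by a log2 fold change of -3.29 (SE 0.40, edgeR adjusted p = 1.9e-04).

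Cyp26b1 showed the lowest log2 fold change of the 9 genes. It encodes a cytochrome P450 that hydroxylates retinoic acid and so limits where it acts (chromosome 6, 84571414 to 84593908, minus strand). The counts were 13, 22 and 9 reads in Six2-high, against 1636, 1584 and 1636 reads in Six2-low. In CPM these are 0.452, 0.928 and 0.442 in Six2-high and 60.5, 61.8 and 52.8 in Six2-low. Each Six2-high library held few reads of the gene, while Six2-low was even across its libraries. The log2 fold change was -6.58 (SE 0.26, edgeR adjusted p = 6.3e-07), or 95.6-fold lower.

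**Figure D2:**
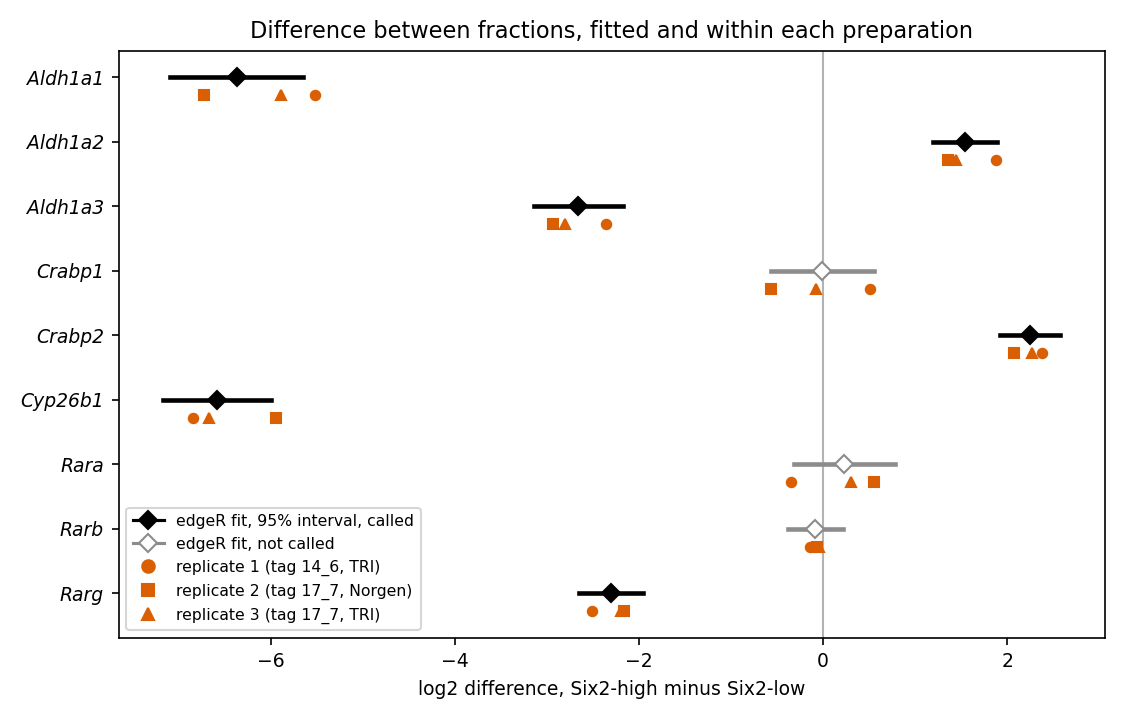
Log2 fold change, Six2-high minus Six2-low, of the 9 genes with its 95% interval from the edgeR fit, and the log2 difference within each of the 3 preparations as separate points. The intervals of Crabp1, Rara and Rarb cross 0, those of the other 6 genes do not, and the points of Crabp1 and Rara fall on both sides of 0.

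Within the preparations the direction was the same 3 times out of 3 for the 6 called genes and for Rarb, and mixed for Crabp1 and Rara. Crabp1 differed by 0.52 in replicate 1, -0.57 in replicate 2 and -0.08 in replicate 3. Rara differed by -0.35 in replicate 1, 0.55 in replicate 2 and 0.31 in replicate 3. The test of the difference itself, the fraction by tag term of edgeR, gave -0.85 for Crabp1 (SE 0.34, adjusted p = 0.57) and 0.80 for Rara (SE 0.35, adjusted p = 0.65), and it called 0% of all genes. With the preparation as a replicate block, the same 6 genes were called, where 64.6% of all genes were.

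Neither preparation tag nor kit gave a call among the 9 genes. Each comparison set 1 preparation against 1 other, so its p-values rest on the disagreement of the fractions, not on a spread between preparations. A lack of calls therefore does not show that tag or kit had no effect. Later against first tag, with the TRI kit, called 0.769% of all genes tested and 0 of the 9. The smallest adjusted p among them was 0.13, for Rarb, at a log2 difference of 0.30 (SE 0.08, edgeR). The Norgen against the TRI kit, under the later tag, called 0% of all genes and 0 of the 9, and the widest log2 difference was 0.43 for Rara (SE 0.20, edgeR adjusted p = 0.32). Counts at an unadjusted p under 0.05 were 2 of the 9 genes for tag, 0 for kit and 1 for the fraction by tag term, against 3293, 2889 and 1256 of all genes tested.

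Levels of different genes were compared per length, as CPM per kilobase of exon. In Six2-high, Aldh1a2 stood first at 495 ± 30.3, followed by Crabp2 at 40.7 ± 4.78 and Rara at 16.9 ± 6.18 CPM per kilobase. Rarb at 9.28 ± 1.12 and Crabp1 at 7.05 ± 2.03 overlapped, as did Aldh1a3 at 3.28 ± 1.01 and Rarg at 3.22 ± 0.156. Cyp26b1 at 0.113 ± 0.0519 and Aldh1a1 at 0.0410 ± 0.0210 came last, without overlap. The order in Six2-high therefore had 2 pairs of neighbours that their spread does not separate. The place of Rarb is uncertain in both fractions, since its length includes the exon bases shared with Top2b.

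In Six2-low, Aldh1a2 was again first, at 170 ± 29.6 CPM per kilobase, and Aldh1a1 last, at 3.52 ± 0.304. Between them lay Aldh1a3 at 20.8 ± 1.79, Rarg at 16.0 ± 2.87, Rara at 14.4 ± 1.50, Cyp26b1 at 10.9 ± 0.910, Rarb at 9.82 ± 0.883, Crabp2 at 8.56 ± 0.795 and Crabp1 at 7.10 ± 0.749 CPM per kilobase. Of these neighbours Rara and Cyp26b1 did not overlap, while Aldh1a3 overlapped Rarg, Rarg overlapped Rara, Cyp26b1 overlapped Rarb, Rarb overlapped Crabp2, and Crabp2 overlapped Crabp1. The ends of the order, Aldh1a2 and Aldh1a1, stood apart from their neighbours.

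Within each library the shares of a family do not depend on library scaling. Aldh1a2 made up 99.3 ± 0.193% of the Aldh1a reads per kilobase in Six2-high and 87.2 ± 2.79% in Six2-low. The remainder was mostly Aldh1a3, at 0.657 ± 0.190% in Six2-high and 11.0 ± 2.63% in Six2-low, with Aldh1a1 at 0.00810 ± 0.00393% in Six2-high and 1.83 ± 0.167% in Six2-low. Nearly all Aldh1a RNA in Six2-high was thus from 1 gene. The summed level of the family was 498 ± 30.7 CPM per kilobase in Six2-high and 194 ± 28.4 in Six2-low.

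Of the binding proteins, Crabp2 took 85.3 ± 3.40% of the summed level per kilobase in Six2-high and 54.7 ± 2.85% in Six2-low. Among the receptors, Rara took 56.3 ± 8.28% in Six2-high and 35.9 ± 3.46% in Six2-low, and Rarg took 11.4 ± 3.08% in Six2-high and 39.5 ± 5.06% in Six2-low. Rarb took 32.3 ± 5.76% in Six2-high and 24.6 ± 3.61% in Six2-low, with overlap between single libraries. The summed receptor level was 29.4 ± 6.59 CPM per kilobase in Six2-high and 40.2 ± 2.29 in Six2-low. By these values Rara was the most abundant receptor RNA per length in every Six2-high library, and Rarg in 2 of the 3 Six2-low libraries. The length used for Rarb includes the 1793 of 5265 exon bases shared with Top2b. Its share, and with it the receptor shares and order, are therefore uncertain.

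**Figure D3:**
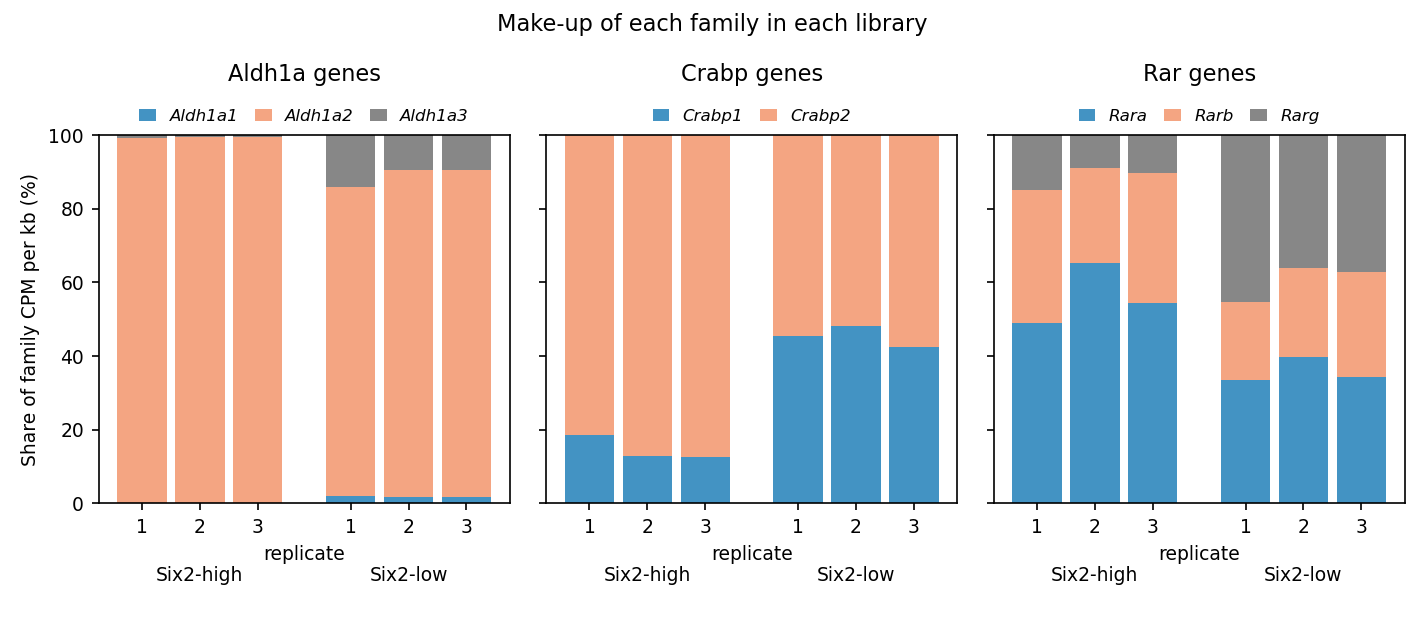
Share of each gene in the summed CPM per kilobase of its family (Aldh1a, Crabp, Rar), in percent from 0, as stacked bars, 1 bar per library, with Six2-high left of Six2-low. Aldh1a2 takes on average 99.3% of its family in Six2-high and 87.2% in Six2-low, and Rarg takes 11.4% in Six2-high and 39.5% in Six2-low.

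Other genes of the pathway, a list of 25 of which 22 were tested, were called higher in 7 cases and lower in 9, with 6 not called and a median log2 fold change of -0.15. Rbp7, Dhrs9 and Cyp26c1 were too low to test, with Dhrs9 at 0 reads in all 3 Six2-high libraries. This is 16 of 22 genes against 50.1% of all genes tested. For uptake, transport and storage, Stra6, a receptor for retinol binding protein, was higher by 0.73 (SE 0.12, edgeR adjusted p = 0.00103). Rbp4, the carrier of retinol in blood, was lower at -1.78 (SE 0.30), and Lrat, which esterifies retinol for storage, at -4.21 (SE 0.67), the last on 1, 0 and 3 reads in the Six2-high libraries.

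The step before the Aldh1a enzymes also differed. Rdh10, the retinol dehydrogenase that makes retinal in the embryo, was at 267, 307 and 347 CPM in Six2-high, against 53.2, 41.3 and 43.1 CPM in Six2-low. All 3 Six2-high libraries lay far above Six2-low, at a log2 fold change of 2.74 (SE 0.15, edgeR adjusted p = 2.6e-06). Rdh10 and Aldh1a2, which catalyse consecutive steps, were thus both higher in Six2-high. Dhrs3, which reduces retinal back to retinol, was lower at -1.02 (SE 0.11), and Adh1, an alcohol dehydrogenase, at -3.35 (SE 0.26). Rdh14 was higher at 0.60 (SE 0.14) and Rdh11 lower at -0.50 (SE 0.16), and both calls were lost without replicate 3 of both fractions (adjusted p = 0.075 for Rdh14). That of Rdh11 was also lost without Six2-high replicate 2, Six2-low replicate 2 or 3 or replicate 2 of both fractions, and with the later-tag libraries summed, at an adjusted p of up to 0.17.

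Cyp26a1, like Cyp26b1, was called lower, at 0.139, 0.380 and 0.344 CPM in Six2-high, against 2.33, 3.28 and 2.71 CPM in Six2-low. The fractions did not overlap, and Cyp26a1 was low on both sides of the sort. Among the receptor partners, Rxra was lower at -0.92 (SE 0.12, edgeR adjusted p = 2.4e-04). Rxrb was higher at 0.33 (SE 0.10, adjusted p = 0.021), and its call was lost without Six2-high replicate 3, any 1 Six2-low library or any preparation, and with the later-tag libraries summed, 8 of 17 alternatives with an adjusted p of up to 0.18. Rxrg was lower at -1.22 (SE 0.43, adjusted p = 0.042), and its call was lost in 12 of 16 alternatives, with an adjusted p of up to 0.20. These were the replicate block (adjusted p = 0.061), DESeq2, no filter, summed later-tag libraries, and leaving out Six2-high replicate 1 or 2, any 1 Six2-low library or any preparation.

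Fabp5, a fatty acid binding protein that can also deliver retinoic acid to a nuclear receptor, was higher at 0.66 (SE 0.23, edgeR adjusted p = 0.041), a call that was lost without Six2-high replicate 1 or 3, Six2-low replicate 2 or 3 or replicate 3 of both fractions, and with the later-tag libraries summed (adjusted p up to 0.22). Ncor1, a corepressor, was not called. Ncoa1, a coactivator, was higher at 0.68 (SE 0.18), a call that was lost without Six2-low replicate 1 or replicate 3 of both fractions, and with the later-tag libraries summed (adjusted p up to 0.12). Of the other coregulators Nrip1, which represses ligand-bound receptors, was lower at -0.98 (SE 0.18), and Ncoa2 and Ncoa3 were not called. With the preparation as a replicate block Ncoa3 was called lower, at -0.42 (SE 0.12, edgeR adjusted p = 0.024), and Adh5, an alcohol dehydrogenase, higher, at 0.28 (SE 0.08, adjusted p = 0.019). Ncoa3 shares a stretch of 154 exon bases with Sulf2, which had 49308 counts against 11612 for Ncoa3, so its value is uncertain without strand. For Ncor1, of 12811 exon bases and 43230 counts, the overlap is small. Its longest shared stretch is 82 bases with Pigl, which had 1882 counts, and 1 base with Ttc19.

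**Figure D4:**
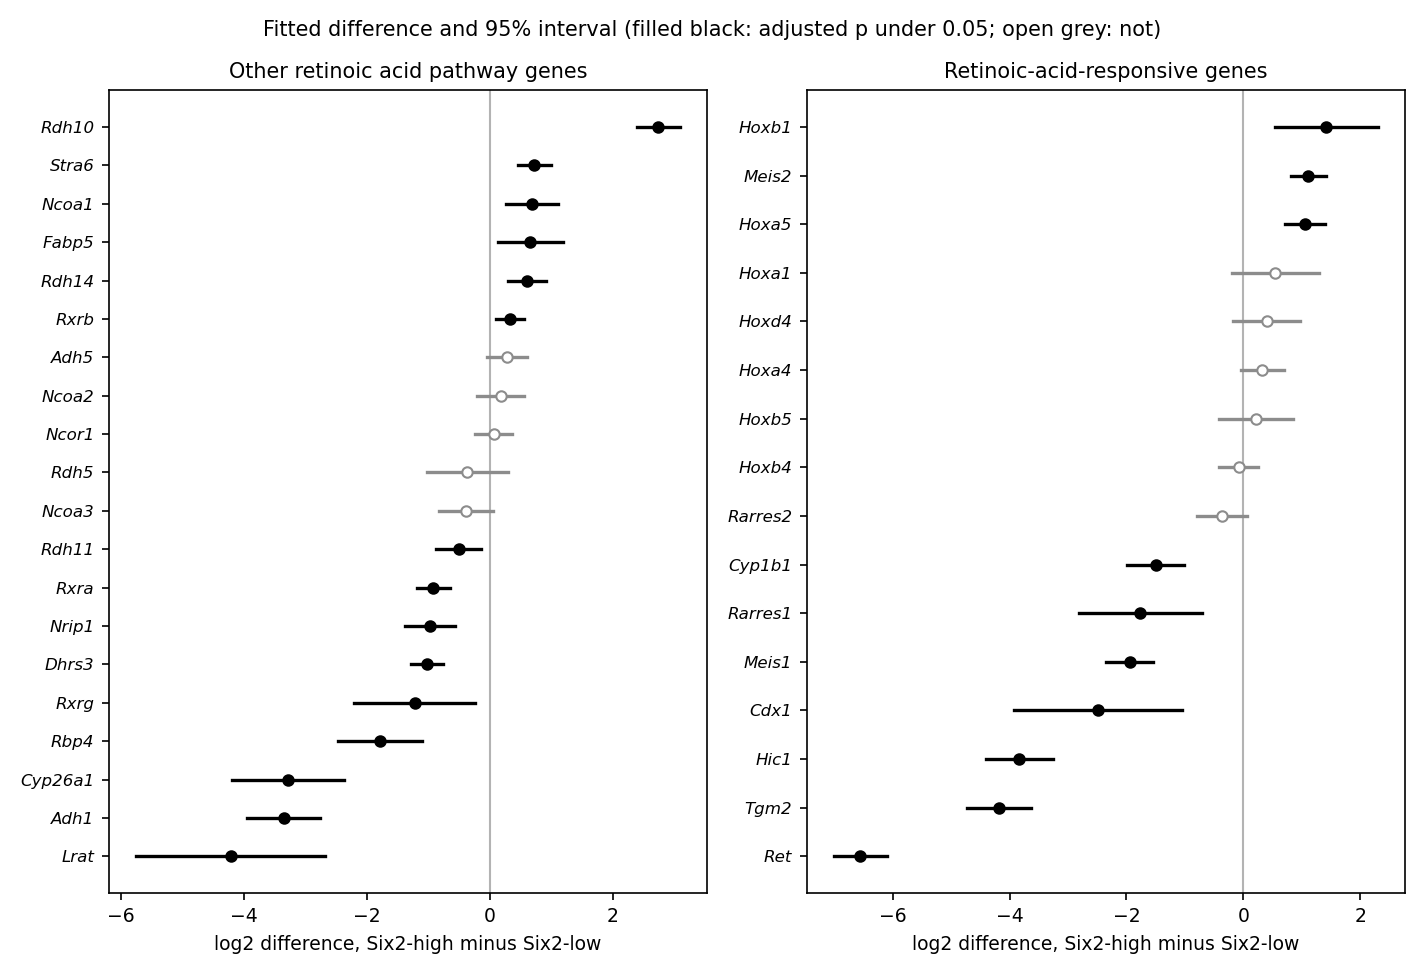
Log2 fold change, Six2-high minus Six2-low, of tested pathway genes outside the 9 (left) and of retinoic-acid-responsive genes (right), each ordered by its value, with its 95% interval from the edgeR fit and a filled black point where called. Rdh10 is farthest to the right on the left side, at 2.74, and Ret has the lowest value on the right side, at -6.55.

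A list of 17 genes known to respond to retinoic acid held 3 called higher and 7 called lower, with 7 not called and a median log2 fold change of -0.25. These 10 calls of 17 lie near the 50.1% called among all genes tested, so the list did not stand out from them. With the replicate block Hoxa4 was also called higher (edgeR adjusted p = 0.049), and the list held 4 called higher and 8 called lower. The 2 genes with the smallest p were Ret and Tgm2. Ret, the receptor of ureteric bud tips, was at 0.765, 0.928 and 1.33 CPM in Six2-high, against 99.8, 88.8 and 90.0 CPM in Six2-low, and Tgm2, a transglutaminase, fell by 4.17 on the log2 scale (SE 0.24, edgeR adjusted p = 3.1e-06). Tgm2 shares exon bases with Rprd1b, so its value is uncertain without strand. Ret also stands in the marker list of the ureteric bud.

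Markers of other cell types were mostly lower in Six2-high, as were Aldh1a1, Aldh1a3, Rarg and Cyp26b1 and unlike Aldh1a2 and Crabp2. Summed CPM of 8 ureteric bud and collecting duct markers was 17.7 to 23.7 in Six2-high and 699 to 894 in Six2-low, with 8 of 8 called lower. Of 8 stromal markers 7 were called lower and 1, Foxd1, higher, at a sum of 249 to 306 CPM in Six2-high and 2344 to 2833 in Six2-low. The Foxd1 call was close to the threshold (edgeR adjusted p = 0.046), and its fractions overlapped in CPM. With the replicate block the edgeR adjusted p was 2.5e-05. Foxd1 also differed by 1.61 on the log2 scale between the later and the first tag. The 6 podocyte, 6 proximal tubule and 6 endothelial markers were all called lower, at sums of 42.6 to 56.1, 48.8 to 78.9 and 22.4 to 25.8 CPM in Six2-high and of 760 to 884, 966 to 1275 and 632 to 1130 CPM in Six2-low. Of 6 markers each, 5 were called lower for the loop of Henle and distal tubule, at sums of 2.36 to 5.28 CPM in Six2-high and 383 to 514 in Six2-low, and 5 for immune cells, at 8.27 to 22.9 CPM in Six2-high and 159 to 220.4 in Six2-low. Of 3 tested each, 2 were called lower for urothelium and 2 for nerve and glia. Summed over all 6 listed markers, tested or not, urothelium was at 2.80 to 4.07 CPM in Six2-high and 5.65 to 19.4 in Six2-low, and nerve and glia at 4.73 to 8.14 CPM in Six2-high and 6.20 to 11.2 in Six2-low. Sox10, a glial marker, was at 0 in all Six2-high libraries. Markers of cap mesenchyme were called higher in 6 of 6 cases, at 1714 to 2858 CPM in Six2-high, against 39.5 to 72.9 CPM in Six2-low. The part of cell type content in the differences of the 9 genes was not tested.

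For each called gene, the genes whose pattern lay nearest were sought among 11333 with a mean of at least 5 CPM, by the root mean square difference of log2 CPM centred on the mean over 6 libraries. For Aldh1a2 they were Proser2 at 0.0821 and Acsl3 at 0.0879 log2 units, and for Crabp2 they were Pcdhb9 at 0.0996 and Lrrn1 at 0.138. For Aldh1a1 they were Arhgef16 at 0.139 and Lyve1, a hyaluronan receptor of lymphatic vessels, at 0.156. For Aldh1a3 they were Serpine2, a protease inhibitor, at 0.0905 and Rab3ip at 0.0938, and for Rarg they were Slc9a3r2 at 0.0721 and Tor4a at 0.0745. The nearest to Cyp26b1 were Grhl2, an epithelial transcription factor, at 0.178 and F2rl1, a protease-activated receptor, at 0.278. The distances describe 6 libraries in 2 fractions, so a likeness is mostly one of the fraction difference.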

How the data were processed

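RNA of 6 libraries, 3 Six2-high and 3 Six2-low, was analysed from the raw gene counts that the authors deposited. Per the submitters' processing notes, HTSeq 0.6.1p1, DESeq2, SAMtools, TopHat and TopHat2 2.1.0 were used with build mm10, in roles not stated there. The annotation and the strand setting were not given in the sources used here. A normalised table deposited with the counts was not used. Of 23420 genes 3662 had no counts.

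Counts were tested with edgeR 4.0.16 in R 4.3.3: filterByExpr, TMM scaling, and glmQLFit and glmQLFTest on fraction, two-sided, with Benjamini-Hochberg adjustment over 15347 genes. Differences within a preparation used log2 CPM with a prior count of 2, which shrinks the differences of genes with few reads. Tag and kit were compared in a model of fraction and preparation, and the fraction by tag term was added after seeing the data. The tests were tried on simulated counts. Alternatives were DESeq2 1.42.0, other scalings and filters, a replicate block, left-out libraries and preparations, the later-tag libraries of each fraction summed, and counts without Rn45s and Lars2.

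The titles give the shared preparation, so the libraries are paired: deviations from the fraction means correlated, across genes, at 0.37, 0.42 and 0.33 within the 3 preparations. Replicates of a fraction differed by more than counting noise (chi-square over its degrees of freedom 16.1 to 200.0), and each was treated as its own replicate. The chi-square included Rn45s, which took 9.59% of the counts in Six2-high replicate 3. The upper end may therefore largely reflect that gene. Such an excess can also be technical. It does not show that replicates 2 and 3, which share a tag, came from separate animals, and the labels do not state this. Positions and exon lengths are from GENCODE M21 on mm10, and promoters from RefSeq on GRCm38.p6.

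The 9 genes and the gene lists were chosen with earlier results of these data known. Named in addition to them were every called gene of the uptake, interconversion, degradation and receptor partner roles, the 2 smallest-p genes of each other role and of the responsive list, and for each called gene the 2 nearest in pattern. Some genes of the lists are counted but not reported here by name.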

Additional observations from a re-analysis of the deposited data

Results flagged for a closer look

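Crabp1 differed between the fractions in opposite directions in different preparations, with a log2 difference, Six2-high minus Six2-low, of 0.516 in replicate 1 and of -0.57 and -0.08 in the later-tag replicates 2 and 3. Rara did so with the signs turned round, at -0.349 in replicate 1 and at 0.55 and 0.31 in replicates 2 and 3. The fraction by tag term of edgeR called neither gene, at adjusted p = 0.57 for Crabp1 and 0.65 for Rara, and 1 preparation carries the first tag. Six2 was also least separated in replicate 1, at a log2 difference of 5.18 against 7.03 and 6.91. Its bearing on Crabp1 and Rara was not tested.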

How the results depend on the processing

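Under 17 alternatives the calls of all 9 genes held, with 6 called, 2 higher and 4 lower, in each. The 3 genes not called stayed so, but the sign of 2 of them turned: Crabp1 was at 0.0066 with no filter and at 0.13 with the later-tag libraries summed, ran from -0.28 to 0.17 with 1 library left out, and was at -0.36, 0.25 and 0.024 without replicate 1, 2 or 3 of both fractions. Rara ran from -0.073 to 0.44 with 1 library left out. With the preparation as a replicate block, Aldh1a2 changed by 1.56 and Cyp26b1 by -6.60 on the log2 scale, 9919 genes were called in all, and no call of the 9 changed, while among the listed genes Adh5, Ncoa3 and Hoxa4 gained a call and Rxrg lost one. The log2 fold change of Aldh1a2 ran from 1.36 to 1.65 and that of Cyp26b1 from -7.00 to -6.39. Leaving out libraries or preparations gave 4629 to 7710 genes called, 10 to 16 of the other pathway genes and 8 to 11 of the responsive genes. The lowest counts, 4629 genes and 10 pathway genes, came without replicate 3 of both fractions, against 7472 and 14 without replicate 1 and 5958 and 14 without replicate 2 of both fractions, which leave as many libraries; the cause was not tested. With the longest transcript in place of all exon bases as length, the shares in Six2-high and Six2-low were 0.0169% and 3.62% for Aldh1a1, 99.1% and 82.5% for Aldh1a2, 0.879% and 13.9% for Aldh1a3, 10.82% and 36.9% for Crabp1 and 89.18% and 63.1% for Crabp2, and in Six2-low 31.9% for Rara and 28.7% for Rarb. Tag and kit were each fitted under 3 alternatives and called 0 of the 9 genes in each, again with 1 preparation against 1 other. Depth limits Aldh1a1 and Cyp26b1 in Six2-high, where few reads set the size of the fold change.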
